A study of Rattus norvegicus with 12 samples.

Results

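The gene expression response to HTV ventilation in lungs of the Brown Norway (BN) rat was taken from 6 of the study's 12 arrays: the 3 whose titles name HTV-ventilated BN lungs and the 3 whose titles name BN controls. The other 6 arrays, 3 control and 3 HTV lungs of the Dahl salt-sensitive (SS) rat, helped to estimate the spread and were compared with BN in the last comparison only. The labels abbreviate the ventilation mode as HTV without spelling it out, and they name ventilation and room air in the description of every array, controls included. All BN animals share the inbred strain, one of the parent strains of the study, and the stated weight range of 250 to 350 g. In both BN groups the lung vessels were flushed with saline before the right lung was frozen, and biotin-labelled cRNA was made from 6 µg of its RNA. Age, ventilator settings and the length of ventilation are not in the labels used here.

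A ventilator inflates the lung by positive pressure, and cells of the air spaces and of the capillaries that are overstretched or injured are known to answer within a short time. They switch on transcription factors that need no new protein to be made, such as those of the AP-1, EGR and NR4A families, and they release interleukin-1, tumour necrosis factor and chemokines through the factor NF-kB. The chemokines draw neutrophils from the blood, while inhibitors induced by the same signals limit the response. The endothelium of lung capillaries is kept in its resting state by flow-responsive and developmental factors, among them KLF2, the SoxF family, Notch, and BMP acting through SMAD and Id proteins.

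Each array measured 31099 probe sets as an intensity, a linear brightness that the submitters had scaled to the same trimmed mean on every array. Of these, 18625 probe sets were bright enough over the 12 arrays (a mean intensity of about 42.2 or more) to be tested, and they stand for 10554 named genes. The HTV arrays count in this mean, so a gene dim in controls could be tested through its rise alone. Counts over lists therefore lean towards such genes. Changes are differences between group means of log2(intensity + 16), HTV minus control, with limma's standard error (SE), so 1 unit is a doubling of bright genes and the changes of dim genes are understated. Rose and fell are used only of genes with a Benjamini-Hochberg adjusted p below 0.05 over all tested probe sets, and every group has n = 3. A gene with several probe sets is given by the one with the highest mean over the 12 arrays. For some genes at least 1 further probe set had the same sign but did not pass. These were Aplnr, Col15a1, Col1a1, Dll4, Edem1, Fzd4, Gaa, Gclc, Gja1, Id4, Klf5, Klf6, Plau, Rnd3, Srf and Txnrd1. Edem1, Id4, Klf5 and Rnd3 had several further probe sets, none of which passed. With the mean of a gene's probe sets, limma did not pass Klf5 and Id4 (adjusted p = 0.165 and 0.161). Further probe sets past the test gave values apart from those below for Dusp1 (1.74 ± 0.24), Jun (1.53 ± 0.12 and 1.22 ± 0.21), Nr4a3 (2.46 ± 0.16) and Fosl2 (0.84 ± 0.15). The BN arrays correlated at r = 0.939 to 0.976 with each other across the tested probe sets. The log2 ratio of the 5-prime to the 3-prime beta-actin controls, which falls as RNA breaks down, was -1.47 to -0.88 in BN control arrays and -1.36 to -1.16 in BN HTV arrays. Defining lung genes were bright in every BN array: the surfactant gene Sftpc at 3691 to 4581, the club cell gene Scgb1a1 at 3751 to 4681, and Ager of type 1 cells at 2182 to 2761. RNA came from whole lung, where fewer cells of a type and less RNA per cell cannot be told apart. One SS array, SS control 3, stood apart from its group; it enters the BN results through the estimate of spread, the brightness filter and the choice of a gene's probe set.

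HTV changed 593 of the 10554 genes (5.62%) in BN lungs. Of these, 313 rose (2.97%) and 280 fell (2.65%). The rises were the larger changes: 115 genes rose at least 2-fold (1.09%) and 22 fell as far (0.208%), while 22 rose and 2 fell at least 4-fold. The median change was 0.81 among the risen genes, -0.62 among the fallen ones and -0.03 over all genes, 5% to 95% of which spanned -0.45 to 0.44. The 3 HTV arrays lay wholly above or below the 3 control arrays for every fallen gene and for 312 of the 313 risen ones, Csf3r being the exception. Such separation is common here, since it held upwards for 10.4% and downwards for 16.2% of all genes, whether they passed the test or not. For a gene that passed, a lack of overlap therefore adds nothing to the test. The count depended on which array was left out: of probe sets, 1084 (5.82%) passed in all, 580, 573 and 619 without BN control 1, 2 and 3, and 540, 560 and 1042 without BN HTV 1, 2 and 3.

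Inflammatory signals led the rise. The largest was that of Cxcl2, a chemokine that attracts neutrophils, with intensities of 43.1, 37.8 and 53.9 in BN control 1, 2 and 3 and 1507, 997 and 269 in BN HTV 1, 2 and 3, the order used throughout. All HTV arrays were far above the controls, and the third was the lowest of them. Cxcl2 rose by 3.65 ± 0.58 (SE; adjusted p = 0.00251). Il1a, which encodes the alarm cytokine interleukin-1 alpha, had 101, 126 and 94.2 in control and 1532, 1385 and 1114 in HTV arrays. Its HTV arrays lay close together, and its adjusted p was the smallest of all tested genes, with a rise of 3.46 ± 0.17 (adjusted p = 2.39e-07). Tnfaip3, whose product A20 shuts off NF-kB signalling, went from 348, 357 and 229.9 to 2141, 2008 and 944 and rose by 2.32 ± 0.38 (adjusted p = 0.00321). Nfkbiz, a nuclear regulator of NF-kB targets, went from 215, 272 and 299.8 to 2038, 1875 and 822 and rose by 2.43 ± 0.42 (adjusted p = 0.00404). In both, BN HTV 3 was again the lowest HTV array and still above all controls. Mt2A, a metallothionein that binds zinc and copper, had 458, 385 and 540.2 and 2472, 2908 and 1424 and rose by 2.21 ± 0.22 (adjusted p = 6.52e-05).

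**Figure D1:**
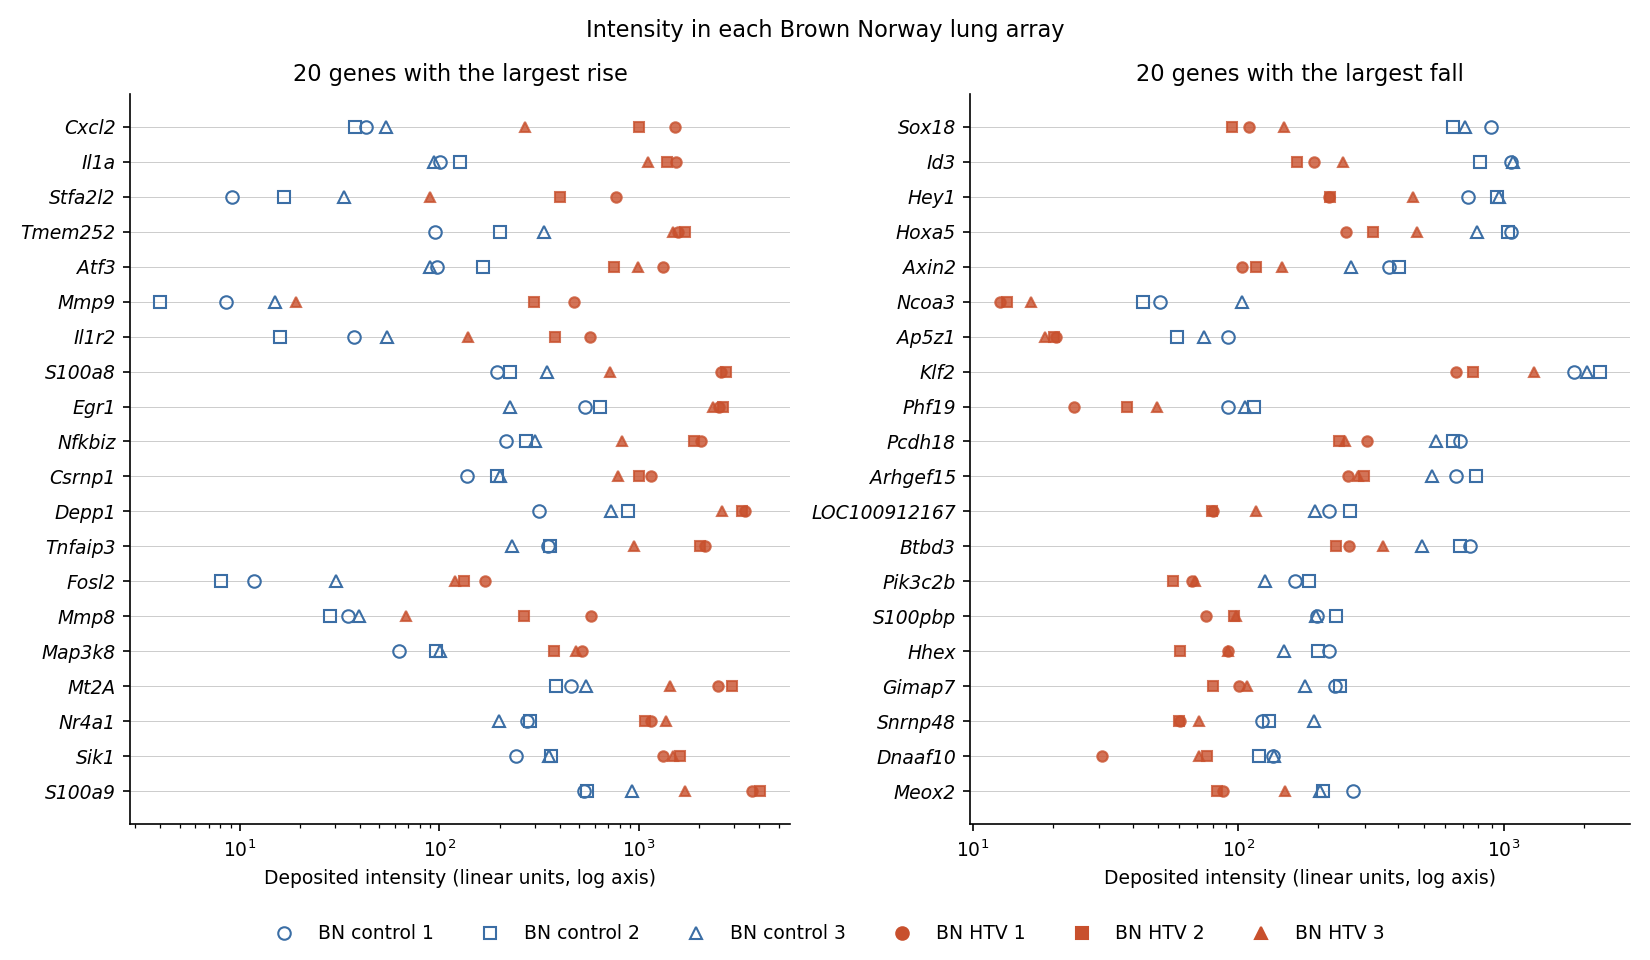
Deposited intensity (linear units on a log axis) of the 20 genes that rose most and the 20 that fell most among genes past the test whose BN groups did not overlap; open blue symbols are the 3 BN control arrays and filled red symbols the 3 BN HTV arrays, each array with its own symbol. The groups separate at every gene, most narrowly at Mmp9, where BN HTV 3 (19.2) lies just above the highest control (15).

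The promoters of these 5 leading risen genes are shown because each holds an AP-1 or NF-kB match, and that of Id3 because it is a leading fallen gene; they were picked by their matches or rank and do not stand for all leading genes. Each line gives the 250 bases before the annotated start of the gene, 5′ to 3′ on the gene's strand, from RefSeq on the rat build GRCr8, with matches to the AP-1 motif (TGACTCA or TGAGTCA), the NF-kB and CArG motifs (by name), the cyclic AMP response element (TGACGTCA) and the TATA box (TATAAA) in capitals, on either strand.
Il1a, chr3:136990018-136990267, minus strand: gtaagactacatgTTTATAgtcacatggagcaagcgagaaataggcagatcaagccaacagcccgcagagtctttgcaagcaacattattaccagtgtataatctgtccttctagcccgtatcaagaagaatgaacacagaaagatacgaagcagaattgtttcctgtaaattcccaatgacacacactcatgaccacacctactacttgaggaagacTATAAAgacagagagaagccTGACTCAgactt
Cxcl2, chr14:17467256-17467505, minus strand: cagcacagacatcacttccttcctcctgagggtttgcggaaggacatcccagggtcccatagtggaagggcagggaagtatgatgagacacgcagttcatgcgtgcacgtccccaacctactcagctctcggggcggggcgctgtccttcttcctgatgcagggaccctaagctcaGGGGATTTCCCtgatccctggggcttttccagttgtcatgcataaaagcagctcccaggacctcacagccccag
Tnfaip3, chr1:15543980-15544229, minus strand: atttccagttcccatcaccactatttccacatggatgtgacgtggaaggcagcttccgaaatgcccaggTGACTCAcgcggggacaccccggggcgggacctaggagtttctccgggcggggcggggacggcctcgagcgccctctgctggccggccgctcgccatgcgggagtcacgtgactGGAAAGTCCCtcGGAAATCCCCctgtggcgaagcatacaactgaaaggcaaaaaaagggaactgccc
Nfkbiz, chr11:58251471-58251720, plus strand: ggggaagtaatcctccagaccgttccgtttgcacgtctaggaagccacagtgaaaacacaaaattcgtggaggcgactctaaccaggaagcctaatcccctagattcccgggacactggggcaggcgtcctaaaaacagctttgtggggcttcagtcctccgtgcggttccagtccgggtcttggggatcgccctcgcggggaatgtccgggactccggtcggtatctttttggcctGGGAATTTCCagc
Mt2A, chr19:10838709-10838958, minus strand: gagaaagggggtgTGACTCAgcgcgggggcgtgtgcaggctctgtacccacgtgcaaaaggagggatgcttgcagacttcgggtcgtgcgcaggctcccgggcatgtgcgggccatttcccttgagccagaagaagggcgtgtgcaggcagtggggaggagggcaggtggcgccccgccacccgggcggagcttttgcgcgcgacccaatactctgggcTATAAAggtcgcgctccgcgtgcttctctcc
Id3, chr5:153656041-153656290, plus strand: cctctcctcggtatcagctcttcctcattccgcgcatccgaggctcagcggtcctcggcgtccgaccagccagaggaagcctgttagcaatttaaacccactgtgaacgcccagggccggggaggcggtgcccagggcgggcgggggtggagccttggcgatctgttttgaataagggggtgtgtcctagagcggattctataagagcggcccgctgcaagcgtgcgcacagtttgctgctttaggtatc
Cxcl2 has a pair of overlapping NF-kB matches that begin 74 and 73 bases before the start, Tnfaip3 has them at 67 and 55 bases with an AP-1 match at 181, and Nfkbiz has 1 at 13 bases. Il1a has an AP-1 match at 12 bases and a TATA box at 32, with a second TATA match on the other strand at 237. Mt2A has a TATA box at 31 bases and an AP-1 match at 237. Id3 has none of the motifs in this window. Egr1, a leading risen gene whose promoter is not printed, has 2 CArG matches that begin 105 and 83 bases before the start. Of the 20 leading risen genes 15 had a promoter in the table, 4 of them with an NF-kB match, 3 with AP-1, 1 with CArG and 0 with the cyclic AMP response element, and 8 with none of these 4. Of the 20 leading fallen genes 12 had one, 2 with an NF-kB match, 2 with a TATA box and 0 with AP-1 or CArG. A match is a description of letters and neither a proven site nor a cause of the change.

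Across promoters the same motifs were counted in windows of 300 bases, 250 before and 50 after the start, which RefSeq gave for 8752 of the tested genes. The cyclic AMP response element was found in 10% of the 90 promoters of genes that rose at least 2-fold, in 5.38% of all 260 risen, in 1.75% of 229 fallen and in 3.11% of all tested genes. Among the risen genes with it were the small Maf factor Maff, the EGF receptor ligand Areg, the early gene Ier2, the stress phosphatase subunit Ppp1r15a, the kinase Plk2, the MAP kinase phosphatase Dusp1 and the VEGF receptor Flt1. AP-1 matches were in 10% of the promoters of genes that rose at least 2-fold, 6.92% of all risen and 3.51% of all tested. NF-kB matches were in 13.3%, 8.08% and 6.47% of these sets. A TATA box was in 24.4% of the promoters of genes that rose at least 2-fold, 18.1% of all risen, 5.24% of fallen and 6.84% of all tested genes. CArG boxes, the motif of serum response factor, were in 3.33% of genes that rose at least 2-fold, 5.38% of all risen, 1.31% of fallen and 1.39% of all tested genes. E-boxes (CACGTG) were in 8.89%, 10%, 6.99% and 9.52% of the same sets. Over all 27457 promoters of the table the shares were 1.91% for the cyclic AMP element, 4.53% for AP-1, 5.06% for NF-kB, 14.3% for the TATA box, 1.64% for CArG and 6.65% for the E-box.

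Gene lists were described by how many of their tested members rose or fell, to be read against the 2.97% and 2.65% of all genes that did, and by their median change, to be read against -0.03. Among the interleukin-1 ligands and receptors, 2 of 7 tested genes rose, the ligand Il1a and Il1r2, a decoy receptor that binds interleukin-1 without signalling (37.3, 15.9 and 54.5 in control and 565, 378 and 139.5 in HTV arrays; 2.74 ± 0.47, adjusted p = 0.00438). Interleukin-1 beta did not pass: Il1b had 236, 214 and 382 in controls and 2406, 1346 and 366 in HTV arrays, and its change of 1.92 ± 0.59 had an adjusted p of 0.0785. BN HTV 3 lay within the controls while the others lay far above them. Il33, an alarm cytokine of the barrier cells, was -0.38 ± 0.11 (adjusted p = 0.0503), and the signalling receptor Il1r1 0.34 ± 0.10 (adjusted p = 0.0611); neither passed.

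Of 13 chemokines and chemokine receptors, 3 rose and 0 fell, with a median of 0.58. Besides Cxcl2 these were Cxcl1, which like it calls neutrophils (1.83 ± 0.29, adjusted p = 0.00249), and Ccl20, which attracts lymphocytes and dendritic cells (2.10 ± 0.41, adjusted p = 0.00959). Cxcl1 had 306, 286 and 368 in control and 1430.2, 1431 and 778 in HTV arrays, with no overlap. The macrophage chemokine Ccl3 was 1.17 ± 0.39 and did not pass (adjusted p = 0.104). The chemokine receptor Cxcr1 lay the other way, at 81.9, 67.2 and 90.5 in control and 39.2, 65.8 and 48.5 in HTV arrays. Its change of -0.52 ± 0.16 did not pass (adjusted p = 0.0762), nor did that of Cxcl3 (0.12 ± 0.16, adjusted p = 0.745). The number that rose was 3, 3 and 3 without BN control 1, 2 and 3 and 3, 3 and 6 without BN HTV 1, 2 and 3.

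Of 8 genes of the interleukin-6 family and STAT3 targets 3 rose, the cytokine Osm (oncostatin M; 1.77 ± 0.23, adjusted p = 0.000722), the interleukin-6 receptor Il6r (0.52 ± 0.11, adjusted p = 0.0160) and, listed as a STAT3 target, Il4r (1.26 ± 0.12, adjusted p = 4.34e-05), a receptor chain for interleukin-4 and interleukin-13. Osm was at 30.2, 32.8 and 44 in control and 182, 189 and 116 in HTV arrays, and Il4r at 224, 254 and 262 and 650.5, 559 and 623. Neither overlapped, and Il4r was level across its HTV arrays. Interleukin-6 itself was below the brightness filter, with Il6 at 15.5, 12.6 and 14.4 in control and 141.5, 136.9 and 21.2 in HTV arrays. Tested without the filter it was 1.68 ± 0.46 (SE; adjusted p = 0.0794). The feedback inhibitor Socs3 was 0.58 ± 0.27 and did not pass (adjusted p = 0.251). The call of Il6r was lost without BN HTV 2 or BN control 3 (adjusted p up to 0.0740).

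Of 16 genes of NF-kB feedback and tumour necrosis factor signalling 4 rose and 0 fell, with a median of 0.54. These were the inhibitors Tnfaip3 and Nfkbia, the regulator Nfkbiz and the early survival gene Ier3. Nfkbia, which encodes the inhibitor IkB alpha, had 871, 1293 and 1559 and 2906, 3311 and 2327 and rose by 1.21 ± 0.20 (adjusted p = 0.00346). Ier3 rose by 1.58 ± 0.19 (adjusted p = 0.000302). The ligand Tnf was 45.3, 33 and 34.8 in control and 377, 286 and 57 in HTV arrays, all above the controls, but with a change of 1.94 ± 0.56 it did not pass (adjusted p = 0.0622). Leaving out BN control 1, 2 and 3 in turn, 4, 4 and 4 members rose, and leaving out BN HTV 1, 2 and 3, 4, 4 and 9. Map3k8, a kinase that relays tumour necrosis factor and Toll-like receptor signals to ERK, rose by 2.22 ± 0.19 (adjusted p = 2.80e-05), from 62.8, 96 and 101 to 517, 377 and 482.

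In pattern recognition 3 of 10 genes rose and 1 fell. The kinase Irak2, which acts below the interleukin-1 and Toll-like receptors, rose by 1.17 ± 0.14 (adjusted p = 0.000408), Tlr2, a receptor for bacterial lipoproteins, by 1.03 ± 0.27 (adjusted p = 0.0380), and the adaptor Myd88 by 0.78 ± 0.21 (adjusted p = 0.0445). Tlr4, the endotoxin receptor, fell by 0.58 ± 0.11 (adjusted p = 0.00782), from 149.7, 136 and 162 to 101, 88.3 and 93.7. The members thus went both ways, and the groups overlapped at none of these 4. Without BN control 1, 2 and 3 the number that rose was 2, 1 and 1, and without BN HTV 1, 2 and 3 it was 1, 1 and 4. Single arrays ended the call of Tlr2 (up to 0.150 without BN HTV 1 or 2, BN control 1, 2 or 3, or SS control 2) and Myd88 (up to 0.160 without BN HTV 1 or 2, BN control 2 or 3, SS HTV 1, 2 or 3, or SS control 1 or 2). Among 7 leukocyte adhesion genes 0 passed; Vcam1 was 0.81 ± 0.25 (adjusted p = 0.0808) and Icam1 0.09 ± 0.20 (adjusted p = 0.869).

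Most of the tested early transcription factors rose. In the AP-1 and ATF list 8 of 10 tested members rose and 0 fell, with a median of 1.55. Atf3, a stress-induced factor, had 97.5, 165 and 90.1 in control and 1316, 745 and 989 in HTV arrays and rose by 2.96 ± 0.27 (adjusted p = 3.64e-05). Fos had 190.5, 220 and 181 and 862, 672 and 877 and rose by 1.94 ± 0.14 (adjusted p = 6.61e-06). At both genes the HTV arrays were well apart from the controls, and the third was not the lowest of them. Fosl2 rose by 2.31 ± 0.36, Maff by 1.75 ± 0.25, Junb by 1.74 ± 0.28, Fosb by 1.36 ± 0.29, Jun by 0.81 ± 0.13 and Mafk by 0.57 ± 0.12. Fosl2 was dim in BN controls (11.8, 8.1 and 30.2) and passed the brightness filter through the HTV arrays. Jun had 1047, 1345 and 1180 in control and 2096, 2046 and 2113 in HTV arrays, level within each group. Fosl1 (0.44 ± 0.14, adjusted p = 0.0982) did not pass. Batf was below the brightness filter and did not pass without it (0.66 ± 0.52, adjusted p = 0.606). Without BN control 1, 2 and 3 in turn 7, 8 and 6 members rose. Without BN HTV 1, 2 and 3 the number was 6, 7 and 9. With 1 array omitted the adjusted p rose above 0.05 for Fosb (up to 0.0748 without BN HTV 1 or 2, or BN control 1 or 3) and Mafk (up to 0.0700 without BN HTV 1, or BN control 3).

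In the list of EGR, NR4A and other early factors 9 of 11 rose and 0 fell, with a median of 0.92. Egr3, Egr4 and Arc were below the brightness filter. Without the filter they were 0.11 ± 0.16, -0.20 ± 0.40 and 0.28 ± 0.21 and did not pass (adjusted p = 0.812, 0.876 and 0.596). Egr1, a zinc finger factor, went from 537, 639 and 226 to 2513, 2639 and 2345 and rose by 2.50 ± 0.40 (adjusted p = 0.00287). The third control array was the lowest and the HTV arrays lay close together. The orphan nuclear receptor Nr4a1 went from 275, 284 and 198 to 1149.6, 1075 and 1357 (2.18 ± 0.18, adjusted p = 2.06e-05), and its relative Nr4a3 rose by 1.43 ± 0.14 (adjusted p = 4.95e-05). Csrnp1 rose by 2.36 ± 0.23 and Ier2 by 1.55 ± 0.16, while smaller rises were those of Myc (0.92 ± 0.22), Egr2 (0.57 ± 0.14), Nr4a2 (0.57 ± 0.15) and Srf (0.51 ± 0.12), which encodes serum response factor. The number that rose was 6, 5 and 5 without BN control 1, 2 and 3 and 5, 7 and 8 without BN HTV 1, 2 and 3. Without 1 of the arrays the adjusted p exceeded 0.05 for Myc (up to 0.102 without BN HTV 1 or 2, or BN control 1, 2 or 3), Egr2 (up to 0.148 without BN HTV 1 or 2, or BN control 2 or 3), Nr4a2 (up to 0.146 without BN HTV 1 or 3, BN control 1, 2 or 3, SS HTV 1, 2 or 3, or SS control 1 or 2) and Srf (up to 0.101 without BN HTV 1, or BN control 1, 2 or 3).

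Of 10 Krueppel-like factors 3 rose, 1 fell and 6 did not pass. Klf9, a glucocorticoid-induced factor (0.96 ± 0.18, adjusted p = 0.00686), Klf5 (0.57 ± 0.10) and Klf6 (0.53 ± 0.10) rose, and Klf2, which laminar flow induces in endothelium, fell. Klf2 had 1839.7, 2296 and 2063 in control and 658, 763 and 1293 in HTV arrays and changed by -1.23 ± 0.27 (adjusted p = 0.0161), and 3 of its 4 tested probe sets fell. Its close relative Klf4 was at 1477, 1576 and 1375 and 1342, 1478 and 1758, with a change of 0.04 ± 0.13 (adjusted p = 0.909). The call was lost without a single array for Klf2 (up to 0.0778 without BN HTV 1 or 2, or BN control 2 or 3).

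Several inhibitors of growth factor signalling rose. Of 9 MAP kinase phosphatases and Sprouty genes 4 rose, all phosphatases: Dusp1 (0.62 ± 0.12), Dusp10 (0.75 ± 0.15), Dusp2 (0.75 ± 0.17) and Dusp5 (0.90 ± 0.23). The Sprouty genes Spry1 (-0.40 ± 0.17) and Spry2 (-0.34 ± 0.18) did not pass. Leaving out BN control 1, 2 and 3 in turn, 2, 2 and 2 members rose, and leaving out BN HTV 1, 2 and 3, 1, 1 and 3. Omitting 1 array raised the adjusted p above 0.05 for Dusp1 (up to 0.0534 without BN HTV 2, or BN control 1), Dusp10 (up to 0.0593 without BN HTV 1, or BN control 3), Dusp2 (up to 0.102 without BN HTV 1 or 2, or BN control 1 or 2) and Dusp5 (up to 0.142 without BN HTV 1, 2 or 3, or BN control 2 or 3). Among 8 EGF receptor genes the ligand Areg (amphiregulin) rose by 1.63 ± 0.24 (adjusted p = 0.00170) and the receptor inhibitor Errfi1 by 1.62 ± 0.15 (adjusted p = 3.64e-05). Areg was at 25.2, 13.9 and 27.5 in control and 109, 114 and 82.2 in HTV arrays, Errfi1 at 519, 655 and 774 and 1909, 1918 and 2193. Of 10 mRNA decay genes Zfp36, whose product destabilises cytokine messages, rose by 1.17 ± 0.26 (adjusted p = 0.0170). Single arrays ended the call of Zfp36 (up to 0.0776 without BN HTV 1 or 2, or BN control 1).

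In the list of RGS and G-protein signalling 6 of 12 rose and 0 fell, with a median of 0.81. Rgs1, which ends signalling by G-protein-coupled receptors, had 65.1, 72.3 and 69.7 in control and 286, 293 and 358 in HTV arrays and rose by 1.94 ± 0.21 (adjusted p = 0.000159). Gem, a small GTP-binding protein that acts on calcium channels and the cytoskeleton, went from 78.3, 78.6 and 69.3 to 283, 212 and 254 (1.53 ± 0.14, adjusted p = 3.64e-05). The groups were far apart at both, and the third HTV array was not the lowest. Rhob rose by 0.95 ± 0.14, the adenosine receptor Adora2b by 0.95 ± 0.15, Rgs16 by 0.94 ± 0.17 and Rnd3 by 0.76 ± 0.15. Sik1, a kinase that cyclic AMP induces, rose by 2.16 ± 0.19 (adjusted p = 3.64e-05), from 242, 364 and 353 to 1318, 1602 and 1476. With 1 array omitted the adjusted p rose above 0.05 for Rnd3 (up to 0.0517 without BN control 3).

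Of 11 glucocorticoid and C/EBP genes 5 rose, with a median of 0.62. Cebpd, a factor of the acute-phase response, was at 374, 491 and 489.5 in control and 1636, 1585 and 1675 in HTV arrays and rose by 1.83 ± 0.15 (adjusted p = 2.58e-05); Cebpb rose by 1.20 ± 0.17 (adjusted p = 0.00120). Per1 (1.6 ± 0.32, adjusted p = 0.00996) and Fkbp5 (1.67 ± 0.41, adjusted p = 0.0281), both induced by glucocorticoids, had controls that varied widely. Per1 was at 107, 352 and 360 in control and 743, 714 and 837 in HTV arrays, Fkbp5 at 97.6, 189.8 and 494 and 787, 641 and 721, with BN control 1 lowest at each. Tsc22d3, another glucocorticoid target, was 0.16 ± 0.18 (adjusted p = 0.678). Without BN control 1, 2 and 3 the number that rose was 3, 4 and 5, and without BN HTV 1, 2 and 3 it was 4, 3 and 4. Leaving out 1 array ended the call of Fkbp5 (up to 0.0998 without BN HTV 1, 2 or 3, or BN control 1 or 2). Of 13 clock genes Per1 and Bhlhe40 (1.59 ± 0.22, adjusted p = 0.000895) rose, and the other 11 did not pass, Bmal1 at -0.53 ± 0.43 (adjusted p = 0.553) among them.

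Of 12 genes of p53 and growth arrest 4 rose: the cell cycle inhibitor Cdkn1a (1.52 ± 0.20, adjusted p = 0.000671), Plk2 (1.46 ± 0.19), Gadd45b (0.99 ± 0.21) and Gadd45a (0.89 ± 0.20). Cdkn1a was at 170.4, 216 and 176 in control and 535, 715 and 468 in HTV arrays. The number that rose was 3, 2 and 3 without BN control 1, 2 and 3 and 2, 2 and 4 without BN HTV 1, 2 and 3. The call was lost without a single array for Gadd45b (up to 0.0725 without BN HTV 1 or 2, or BN control 2 or 3) and Gadd45a (up to 0.0910 without BN HTV 1 or 2, or BN control 1 or 2). Among 10 CCN genes and YAP targets, genes that stretch of cells is known to induce, 3 rose and 1 fell. The matrix protein gene Ccn1 rose by 1.54 ± 0.22 (adjusted p = 0.00147), from 169, 226 and 152 to 627, 428 and 631, while Ccn2, regulated much like it in other tissues, was 0.33 ± 0.13 (adjusted p = 0.188). F3 and Edn1, which also count in the clotting and vascular tone lists below, were the other risen members. Amotl2 fell (-0.37 ± 0.09, adjusted p = 0.0289). Ajuba (-0.48 ± 0.15, adjusted p = 0.0710) and Lats2 (-0.21 ± 0.09, adjusted p = 0.223) did not pass. In this list 3 genes had HTV arrays wholly above the controls and 3 wholly below, against 10.4% and 16.2% of all genes. Omitting 1 array raised the adjusted p above 0.05 for Amotl2 (up to 0.101 without BN HTV 2 or 3, or BN control 1, 2 or 3).

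**Figure D2:**
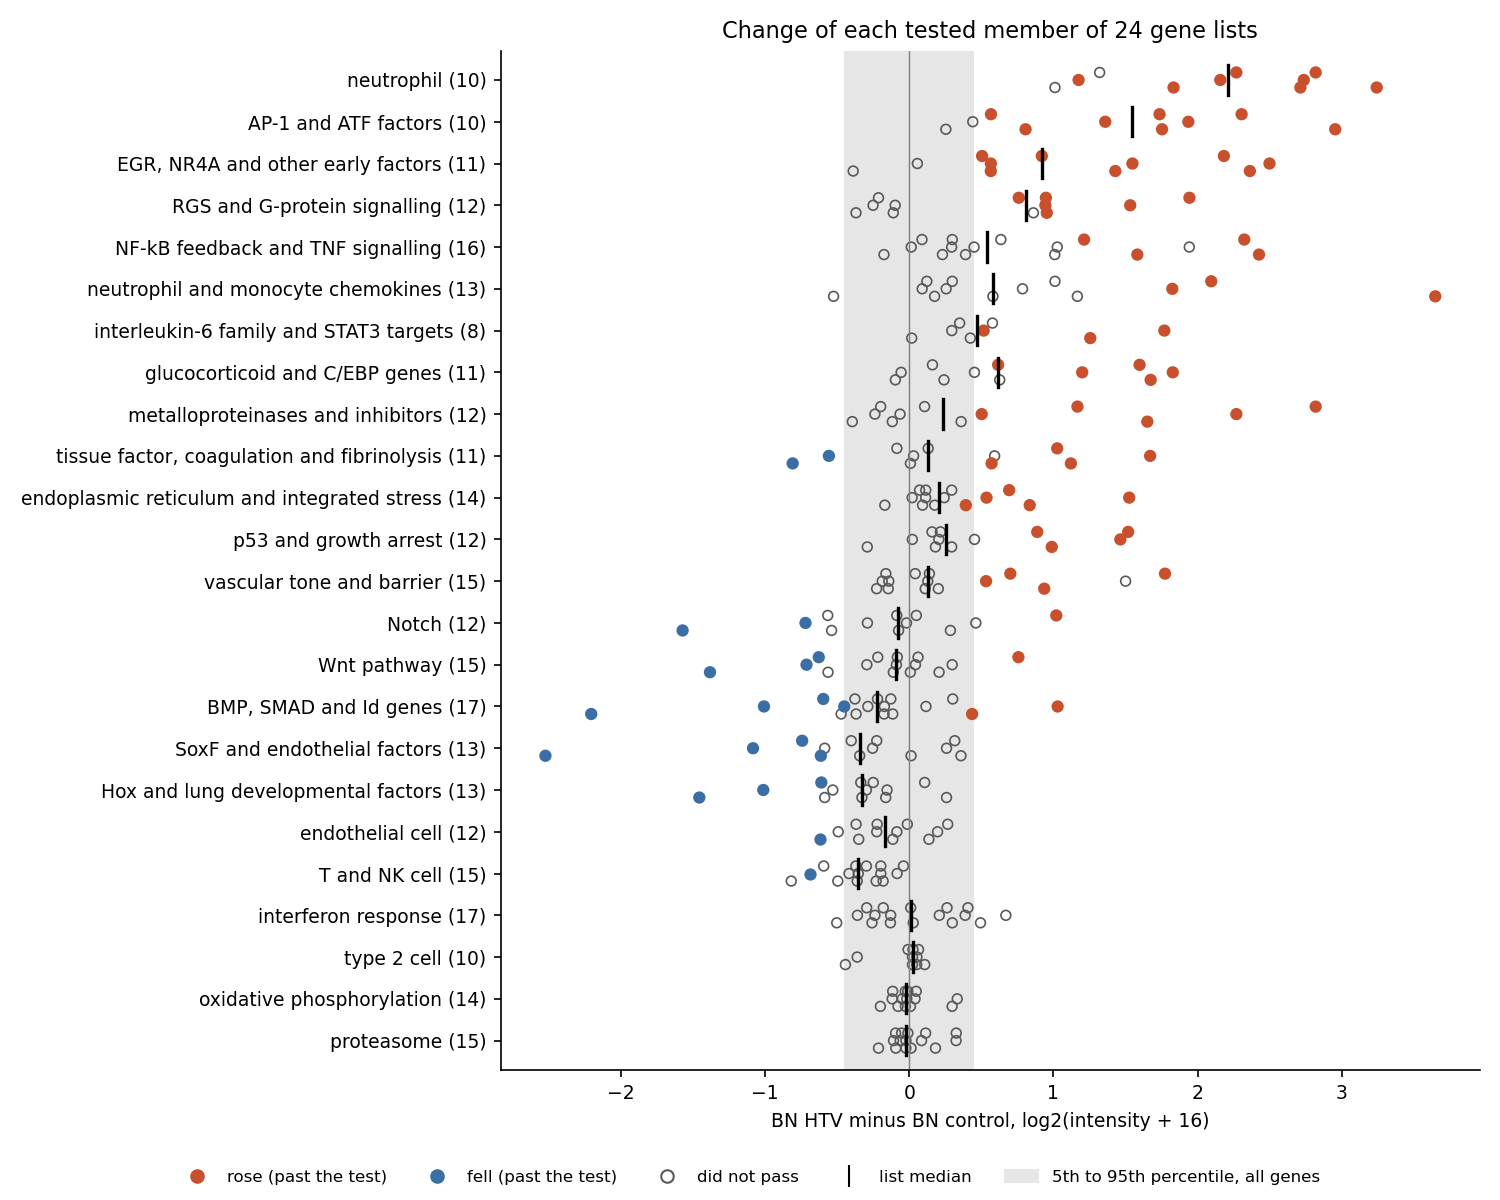
Change in BN lungs (BN HTV minus BN control, log2(intensity + 16)) of each tested member of 24 gene lists; filled red points rose and filled blue points fell past the test, open points did not pass, black bars are list medians, the grey band spans the 5th to 95th percentile of all genes (-0.45 to 0.44), and the number of tested members stands in brackets. Early factors and neutrophil markers lie to the right, the SoxF, BMP and Hox lists have their blue points to the left, and type 2 cell, oxidative phosphorylation and proteasome genes stay within the band.

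Neutrophil markers rose in 8 of 10 tested members, with a median of 2.21. Mmp9, one of the 8, passed the brightness filter only through the HTV arrays, its controls averaging 9.17 in BN and 9.5 in SS. The controls of Il1r2 (35.9 in BN and 59.4 in SS) and Mmp8 (34.1 and 51.3) also fell just short of the filter on its log scale. Stfa2l2 was dim in BN controls (19.7) but not in SS controls (162). The count of 8 thus leans on arrays where these members are high. The filter left out Np4 (17, 10.7 and 9.3 in control and 6.9, 12.8 and 4.9 in HTV arrays). It also left out Camp (4.5, 5.2 and 4.5 in control and 185.9, 96 and 13.9 in HTV arrays). S100a8 and S100a9 encode the subunits of calprotectin, which fills the neutrophil cytosol. S100a8 was at 194, 225 and 346 in control and 2569.7, 2737 and 711 in HTV arrays and rose by 2.71 ± 0.40 (adjusted p = 0.00163). S100a9 was at 528, 547 and 922 and 3688, 4016 and 1694 and rose by 2.16 ± 0.31 (adjusted p = 0.00136). In both the third HTV array was the lowest and still above the controls. Mmp8, neutrophil collagenase, had 34.7, 28.2 and 39.4 and 573, 265 and 68.2 (2.27 ± 0.48, adjusted p = 0.0141), and Mmp9, gelatinase B, 8.5, 4 and 15 and 471, 296 and 19.2 (2.82 ± 0.74, adjusted p = 0.0405). BN HTV 3 stood only slightly above the controls at both, and 1 of 2 tested probe sets of Mmp9 rose. Stfa2l2, a cysteine protease inhibitor of a family of near-identical stefins that the array may not separate, rose by 3.24 ± 0.52 (adjusted p = 0.00291). Pglyrp1 rose by 1.83 ± 0.39 and the receptor of G-CSF, Csf3r, by 1.18 ± 0.29; the chemokine receptor Cxcr2 (1.01 ± 0.37, adjusted p = 0.141) and Lcn2 (1.32 ± 0.89, adjusted p = 0.457) did not pass. Single arrays ended the call of Mmp8 (up to 0.0607 without BN HTV 2, or BN control 2), Mmp9 (up to 0.161 without BN HTV 1 or 2, BN control 1, 2 or 3, SS HTV 3, or SS control 1 or 2), Pglyrp1 (up to 0.0717 without BN HTV 1 or 2, or BN control 1 or 2) and Csf3r (up to 0.128 without BN HTV 1 or 2, or BN control 1 or 2).

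The neutrophil count depended on single arrays: 5, 4 and 7 of the 10 markers rose without BN control 1, 2 and 3, and 5, 4 and 9 without BN HTV 1, 2 and 3. The mean difference of the list from the BN control mean was 2.97, 2.64 and 0.77 in the HTV arrays and -0.09, -0.34 and 0.43 in the controls. Several listed markers, such as Il1r2, Mmp9 and Lcn2, are also made by other lung cells. The chemokine and NF-kB lists moved with the neutrophil markers across the HTV arrays, at 1.22, 1.19 and 0.25 for chemokines and 1.24, 1.03 and 0.31 for NF-kB. The part of neutrophil number in these results was not tested.

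**Figure D3:**
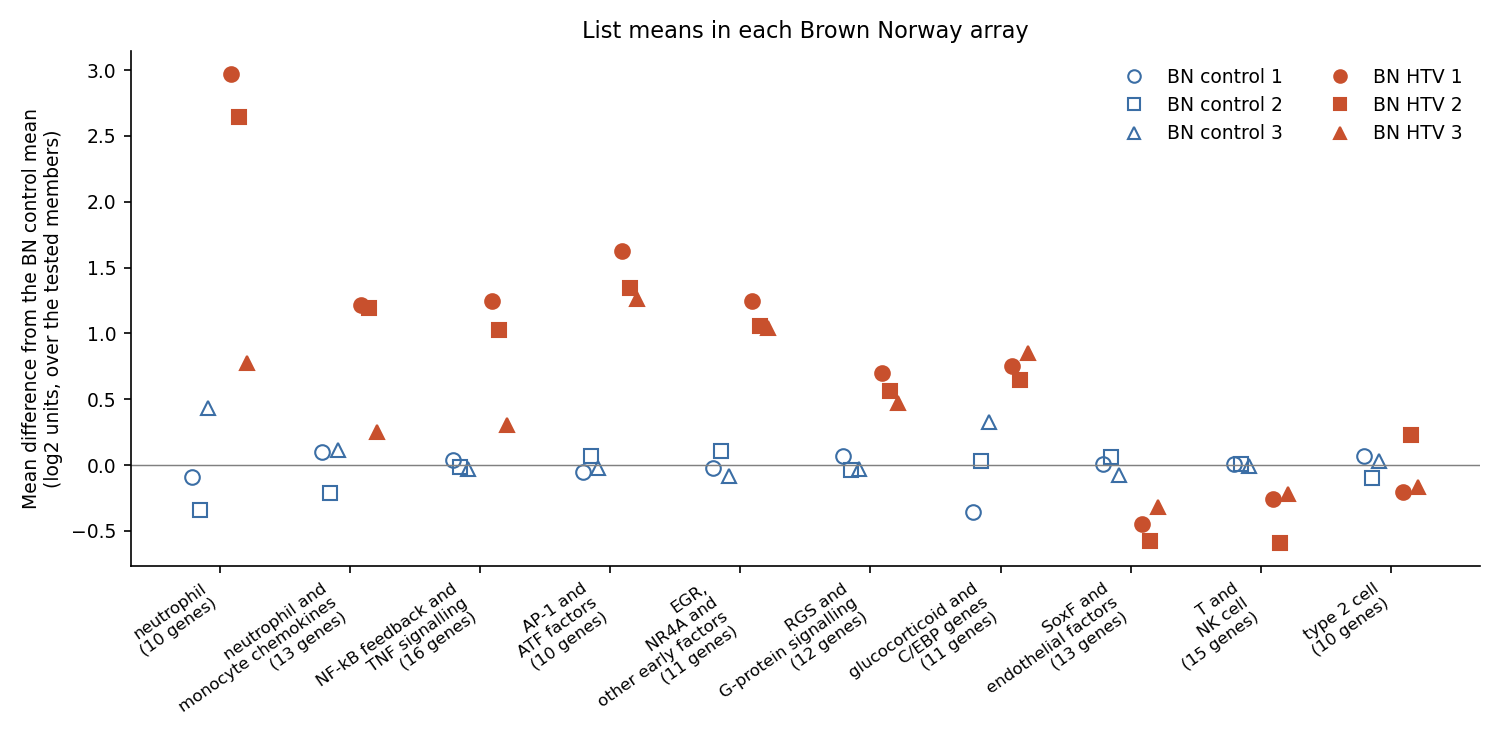
Mean difference from the BN control mean (log2 units, over the tested members of each list) in each BN array, for 10 gene lists; open blue symbols are the 3 control arrays, filled red symbols the 3 HTV arrays. BN HTV 3 is low in the neutrophil, chemokine and NF-kB lists (0.77, 0.25 and 0.31) and near the other HTV arrays in the AP-1 and EGR lists (1.26 and 1.04).

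The 3 HTV arrays differed, and by unequal amounts among the risen genes. Among the 115 genes that rose at least 2-fold, BN HTV 3 had the smallest change in 79, BN HTV 2 in 26 and BN HTV 1 in 10, and the median change was 1.71, 1.51 and 1.26 in BN HTV 1, 2 and 3. At 17 of the 115 the change in BN HTV 3 was under 0.5 of the mean change of the other HTV arrays. Among them were Mmp9, Mmp8, Pglyrp1, Tlr2, Csf3r, S100a8 and Plaur, genes that neutrophils or other myeloid cells express. The 17 also held genes of no marker list, such as F2rl2 (0.20), Slc2a3 (0.28) and Nuak2 (0.40). The neutrophil markers Il1r2 (0.51) and S100a9 (0.54) were not among the 17. At 38 genes the change in BN HTV 3 was at least 0.9 of that mean. They included Atf3, Egr1, Ier2, Fos, Sik1, Nr4a1, Cebpd, Errfi1 and Adamts1. Not all early factors were among these 38: the share was 0.53 for Fosb, 0.71 for Junb and 0.82 for Csrnp1. Alas1, the first enzyme of haem synthesis, was the gene of the 115 for which BN HTV 3 stood highest relative to the others, at 166, 162 and 207 in control and 535, 516 and 939 in HTV arrays (1.76 ± 0.19, adjusted p = 0.000159). The genes of this paragraph were chosen after their values were seen, for how the arrays differ, so the difference is a description with no test.

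Few markers of other immune cells passed the test, though several lists lay below 0. Of 15 T and NK cell genes 0 rose and 1 fell, the NK receptor gene Klrb1a (-0.69 ± 0.19, adjusted p = 0.0451; 107, 113 and 98.6 in control and 57.6, 51.5 and 71.6 in HTV arrays). All 15 were below 0, with a median of -0.35, and 8 of them had HTV arrays wholly below the controls, against 16.2% of all genes. The killer cell gene Prf1, perforin, was -0.82 ± 0.27 (adjusted p = 0.106) and the T cell kinase Lck -0.59 ± 0.17 (adjusted p = 0.0609). Of B and plasma cell markers 0 of 2 passed, at a median of -0.77, and both had HTV arrays wholly below the controls; Jchain, of antibody-secreting cells, was -0.96 ± 0.28 (adjusted p = 0.0600). Cd79b, a subunit of the B cell receptor, was below the brightness filter, at 99.3, 63.2 and 67.4 in control and 29.5, 3.3 and 18.7 in HTV arrays (-1.55 ± 0.27, adjusted p = 0.0109 without the filter). With 1 array omitted the adjusted p rose above 0.05 for Klrb1a (up to 0.154 without BN HTV 1 or 2, BN control 1, 2 or 3, SS HTV 1, 2 or 3, or SS control 1). None of 8 alveolar macrophage, 8 monocyte and 6 mast cell markers passed, with medians of 0.11, -0.01 and -0.45; 3 of the mast cell markers had HTV arrays wholly below the controls. Mrc1 of alveolar macrophages and Csf1r of monocytes were 0.09 ± 0.12 and -0.36 ± 0.17. Of the red cell and platelet markers 0 of 5 passed, at a median of 0.92; the platelet chemokine Pf4 was 0.92 ± 0.26 (adjusted p = 0.0534) and haemoglobin Hbb was at 2505, 564 and 806 in control and 2973, 3597 and 2348 in HTV arrays, high in BN control 1 as well. The platelet chemokine Ppbp, below the filter, was at 26.4, 25.5 and 22.1 in control and 78, 69.7 and 49.7 in HTV arrays (0.99 ± 0.19, adjusted p = 0.0143 without the filter). Of 69 list members below the filter, Ppbp was the 1 past the test upwards without it, and Cd79b and Lyl1 were the 2 downwards; they are named after their values were seen. How blood left in the vessels bears on other genes was not tested.

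Genes of clotting, proteolysis and vascular tone were partly raised. Tissue factor, F3, which starts coagulation, went from 402, 400.4 and 438 to 1399.5, 1591 and 1107 and rose by 1.67 ± 0.21 (adjusted p = 0.000588), while its inhibitor Tfpi fell by 0.81 ± 0.17 (adjusted p = 0.0145). Plat, the tissue plasminogen activator, rose by 1.12 ± 0.13 (adjusted p = 0.000234), from 645, 723 and 759 to 1662, 1575 and 1445, whereas the urokinase Plau was -0.56 ± 0.14 and fell and its receptor Plaur rose by 1.03 ± 0.22. The endothelial protein C receptor Procr rose by 0.57 ± 0.12. In all, 4 of 11 genes of this list rose and 2 fell, at a median of 0.13. Another tested probe set of Tfpi did not pass (0.14 ± 0.13). Leaving out BN control 1, 2 and 3 in turn, 3, 3 and 3 members rose, and leaving out BN HTV 1, 2 and 3, 2, 2 and 5. Without BN control 1, 2 and 3 the number that fell was 0, 1 and 0, and without BN HTV 1, 2 and 3 it was 1, 0 and 1. Without 1 of the arrays the adjusted p exceeded 0.05 for Tfpi (up to 0.0645 without BN HTV 2, or BN control 1 or 3), Plau (up to 0.121 without BN HTV 1, 2 or 3, or BN control 1, 2 or 3), Plaur (up to 0.0724 without BN HTV 1 or 2, or BN control 2) and Procr (up to 0.0674 without BN HTV 1 or 2, or BN control 1 or 3).

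Of 15 genes of vascular tone and barrier 4 rose. The prostaglandin synthase Ptgs2 was at 21.7, 20.7 and 20.8 in control and 208, 85.7 and 73.5 in HTV arrays and rose by 1.77 ± 0.27 (adjusted p = 0.00220). Endothelin, Edn1, a vasoconstrictor, rose by 0.94 ± 0.17 (adjusted p = 0.00693), the sphingosine receptor S1pr1, which tightens the endothelial barrier, by 0.53 ± 0.12 (adjusted p = 0.0163), and Nampt, an enzyme of NAD synthesis also secreted as a cytokine, by 0.70 ± 0.19 (adjusted p = 0.0465). The inducible nitric oxide synthase Nos2 was 23.2, 65.2 and 8.5 in control and 112, 102 and 100.5 in HTV arrays and did not pass (1.5 ± 0.43, adjusted p = 0.0567). Myosin light chain kinase, Mylk, was -0.16 ± 0.10 (adjusted p = 0.389). The number that rose was 2, 4 and 3 without BN control 1, 2 and 3 and 3, 2 and 4 without BN HTV 1, 2 and 3. The call was lost without a single array for S1pr1 (up to 0.0761 without BN HTV 2, or BN control 1) and Nampt (up to 0.182 without BN HTV 1 or 2, BN control 1, 2 or 3, SS HTV 1, or SS control 1 or 2).

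Of 12 metalloproteinases and inhibitors 5 rose and 0 fell. Adamts1, a secreted protease that cleaves proteoglycans, was at 288, 320.5 and 345 and 945, 957 and 1211 and rose by 1.65 ± 0.14 (adjusted p = 2.58e-05), highest in BN HTV 3, in contrast to Mmp8 and Mmp9. Timp1, an inhibitor of metalloproteinases, rose by 1.17 ± 0.28 (adjusted p = 0.0285), from 124, 76.1 and 179 to 227, 497 and 212, and Adamts9 by 0.50 ± 0.13. Mmp2 (-0.20 ± 0.12) did not pass. Leaving out BN control 1, 2 and 3 in turn, 2, 1 and 4 members rose, and leaving out BN HTV 1, 2 and 3, 3, 1 and 4. Omitting 1 array raised the adjusted p above 0.05 for Mmp8 (up to 0.0607 without BN HTV 2, or BN control 2), Mmp9 (up to 0.161 without BN HTV 1 or 2, BN control 1, 2 or 3, SS HTV 3, or SS control 1 or 2), Timp1 (up to 0.115 without BN HTV 2, or BN control 1 or 2) and Adamts9 (up to 0.141 without BN HTV 1, 2 or 3, BN control 1 or 2, SS HTV 3, or SS control 2). Lrrc32, which holds latent TGF-beta at the cell surface, rose by 1.97 ± 0.15 (adjusted p = 1.36e-05), from 97.9, 118 and 122 to 539, 441 and 481, and was the only 1 of 14 TGF-beta genes to pass; Tgfb1 was 0.02 ± 0.19.

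Of 14 genes of endoplasmic reticulum and integrated stress 5 rose: Ppp1r15a, which restarts translation (1.53 ± 0.22, adjusted p = 0.00128), Herpud1 (0.84 ± 0.15), Trib3 (0.69 ± 0.13), Edem1 (0.54 ± 0.14) and Atf4 (0.39 ± 0.10), while the chaperone Hspa5 was 0.11 ± 0.13 and Ddit3 -0.17 ± 0.15. Without BN control 1, 2 and 3 the number that rose was 3, 3 and 4, and without BN HTV 1, 2 and 3 it was 3, 4 and 4. Single arrays ended the call of Edem1 (up to 0.118 without BN HTV 1 or 3, or BN control 1, 2 or 3) and Atf4 (up to 0.117 without BN HTV 1 or 2, or BN control 1 or 2). Of 10 Nrf2 targets 3 rose, Srxn1 by 0.82 ± 0.13 (adjusted p = 0.00272), Txnrd1 by 0.42 ± 0.11 and Gclc by 0.43 ± 0.12. The number that rose was 2, 1 and 1 without BN control 1, 2 and 3 and 1, 1 and 3 without BN HTV 1, 2 and 3. With 1 array omitted the adjusted p rose above 0.05 for Txnrd1 (up to 0.144 without BN HTV 1 or 2, BN control 2 or 3, SS HTV 1, or SS control 2) and Gclc (up to 0.168 without BN HTV 1 or 2, BN control 1, 2 or 3, SS HTV 1, 2 or 3, or SS control 2). Haem oxygenase, Hmox1, was at 347, 273 and 278 in control and 197, 2018 and 171 in HTV arrays, so that 1 array was high and the others were below the controls. Of 13 hypoxia and glycolysis genes Pfkfb3, an activator of glycolysis, rose by 1.72 ± 0.17 (adjusted p = 5.27e-05) and Bnip3 by 0.47 ± 0.12. Another probe set of Pfkfb3 did not pass (0.45 ± 0.23); Vegfa was -0.19 ± 0.10 and Slc2a1 0.50 ± 0.16. Leaving out 1 array ended the call of Bnip3 (up to 0.123 without BN HTV 1 or 3, or BN control 1 or 2). Of 5 tested genes of zinc handling Mt2A alone passed, and of 7 amino acid transporters Slc7a5 alone (0.88 ± 0.18, adjusted p = 0.0105). The call was lost without a single array for Slc7a5 (up to 0.0539 without BN HTV 2). None of 10 heat shock genes passed, with a median of -0.12; Hspa1a was -0.40 ± 0.20.

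The largest falls were those of Sox18 and Id3, which encode transcriptional regulators. Sox18, a SoxF factor of vascular and lymphatic endothelium, had 894, 641 and 711 in control and 109.5, 94.8 and 149 in HTV arrays. Every HTV array was far below every control, and Sox18 fell by 2.52 ± 0.29 (adjusted p = 0.000234). Id3, a target of BMP signalling that blocks helix-loop-helix factors, went from 1063, 815 and 1078 to 192, 166 and 247 and fell by 2.21 ± 0.16 (adjusted p = 1.19e-05). Hey1, a Notch target, went from 732, 941 and 957 to 219.9, 222 and 456 (-1.57 ± 0.36, adjusted p = 0.0220). Hoxa5, a factor of lung mesenchyme, went from 1063, 1041 and 789.9 to 255, 322 and 469.5 (-1.46 ± 0.28, adjusted p = 0.00771). In each of these 4 BN HTV 3 was the least lowered HTV array. The groups did not overlap, which was required of the leading genes. Axin2, a feedback inhibitor that Wnt signalling induces, had 369, 403 and 265 and 103, 116 and 146 (-1.38 ± 0.22, adjusted p = 0.00228). Omitting 1 array raised the adjusted p above 0.05 for Hey1 (up to 0.0965 without BN HTV 1 or 2, or BN control 2 or 3).

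Of 13 SoxF and other endothelial factors 4 fell and 0 rose, with a median of -0.34. Beside Sox18 these were Hhex (-1.08 ± 0.19, adjusted p = 0.00440), Sox7 (-0.74 ± 0.15, adjusted p = 0.0113) and Tal1 (-0.61 ± 0.13, adjusted p = 0.0168). Sox7 went from 953, 919 and 929 to 659, 423 and 600.3, while Sox17 was at 822, 998 and 1093 in control and 1235, 1118 and 1266 in HTV arrays, a change of 0.32 ± 0.15 that did not pass (adjusted p = 0.262; a second probe set gave -0.12 ± 0.21). Lyl1, a relative of Tal1, was below the brightness filter, at 42, 44.2 and 64.1 in control and 11.8, 6.6 and 5.7 in HTV arrays, and was -1.45 ± 0.18 without the filter (adjusted p = 0.00133). Single arrays ended the call of Tal1 (up to 0.0799 without BN HTV 1 or 2, or BN control 1 or 2).

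Of 12 general endothelial markers 1 fell and 0 rose, with a median of -0.17; it was Car4, the carbonic anhydrase of lung capillaries, at 791, 703 and 677 in control and 470.1, 417 and 513 in HTV arrays (-0.62 ± 0.12, adjusted p = 0.00726). Pecam1 was 0.14 ± 0.11 (adjusted p = 0.546), Vwf -0.09 ± 0.12 and Kdr -0.35 ± 0.12 (adjusted p = 0.107). Of the 12 markers, 6 had HTV arrays wholly below the controls and 1 wholly above, against 16.2% and 10.4% of all genes. Among 11 VEGF, angiopoietin and ephrin genes the VEGF receptor Flt1 rose by 1.23 ± 0.18 (adjusted p = 0.00136), from 169.6, 198 and 174 to 501, 401 and 434; 2 of its 3 tested probe sets rose and the third was -0.37 ± 0.21. In the same list the ephrin Efna1 (-0.87 ± 0.14, adjusted p = 0.00301) and the apelin receptor Aplnr (-0.78 ± 0.20, adjusted p = 0.0342) fell. Efna1 was at 499, 439 and 409 and 230.4, 221 and 265, without overlap. With 1 array omitted the adjusted p rose above 0.05 for Aplnr (up to 0.138 without BN HTV 1 or 3, or BN control 1 or 2).

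BMP signalling genes changed in both directions. Of 17, 4 fell and 2 rose, with a median of -0.22. The ligand Bmp2 rose by 1.03 ± 0.16 (adjusted p = 0.00204), from 74, 82.7 and 69.2 to 198, 181 and 137. Beside Id3, the signal transducers Smad9 (-1.01 ± 0.11, adjusted p = 0.000183) and Smad5 (-0.45 ± 0.11, adjusted p = 0.0298) and the decoy receptor Bambi (-0.60 ± 0.11, adjusted p = 0.00671) fell. Id4 rose by 0.44 ± 0.12 (adjusted p = 0.0445), and Id1 was at 1842, 2098 and 2412 in control and 1420.3, 1447 and 1682 in HTV arrays (-0.47 ± 0.14, adjusted p = 0.0709). Other probe sets of Smad5 gave 0.05 ± 0.33 and -0.08 ± 0.14. Without 1 of the arrays the adjusted p exceeded 0.05 for Smad5 (up to 0.113 without BN HTV 1 or 2, or BN control 1, 2 or 3) and Id4 (up to 0.132 without BN HTV 1, 2 or 3, BN control 1, 2 or 3, SS HTV 1, or SS control 1 or 2).

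Of 12 Notch genes Hey1 and the endothelial ligand Dll4 (-0.72 ± 0.19, adjusted p = 0.0383) fell, and the ligand Dll1 rose (1.02 ± 0.23, adjusted p = 0.0204; 33.8, 28.1 and 40 in control and 78.8, 75.2 and 103 in HTV arrays). Leaving out BN control 1, 2 and 3 in turn, 1, 0 and 0 members fell, and leaving out BN HTV 1, 2 and 3, 0, 0 and 2. The call was lost without a single array for Dll4 (up to 0.146 without BN HTV 1 or 2, BN control 1, 2 or 3, or SS HTV 1) and Dll1 (up to 0.0836 without BN HTV 1 or 3, or BN control 1 or 2). Of 15 Wnt pathway genes 3 fell and 1 rose. Beside Axin2, the receptor Fzd2 (-0.71 ± 0.12, adjusted p = 0.00451) and the factor Tcf7 (-0.63 ± 0.14) fell, and Fzd4, the receptor that endothelium uses, rose (0.76 ± 0.16, adjusted p = 0.0135). Fzd2 was level in each group, at 224, 225 and 208 and 125, 126 and 130.5. Omitting 1 array raised the adjusted p above 0.05 for Tcf7 (up to 0.0779 without BN HTV 1 or 2, or BN control 1 or 2) and Fzd4 (up to 0.0607 without BN HTV 1 or 2, or BN control 1). Of 13 Hox and lung developmental factors 3 fell and 0 rose, with a median of -0.33: Hoxa5, Meox2 (-1.01 ± 0.19, adjusted p = 0.00746) and Tcf21 (-0.61 ± 0.14, adjusted p = 0.0224), which are mesenchymal. Nkx2-1, the master factor of lung epithelium, was -0.34 ± 0.11 (adjusted p = 0.112). Single arrays ended the call of Tcf21 (up to 0.0931 without BN HTV 1, 2 or 3, or BN control 1 or 3).

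Other leading fallen genes belonged to no list. Ncoa3, a coactivator of nuclear receptors, was at 50.5, 43.9 and 104 in control and 12.7, 13.4 and 16.5 in HTV arrays and fell by 1.37 ± 0.26 (adjusted p = 0.00831). Ap5z1, a subunit of an adaptor complex of late endosomes, went from 91.2, 58.8 and 74.5 to 20.5, 20.2 and 18.7 (-1.33 ± 0.19, adjusted p = 0.00117). The HTV values of both were near or below 20, where the distance from background is unknown. Arhgef15, a gene of endothelium, went from 659, 782 and 537 to 258, 299 and 283 (-1.18 ± 0.13, adjusted p = 0.000189). Pcdh18, a protocadherin (-1.19 ± 0.16), Btbd3 (-1.14 ± 0.18), the Polycomb partner Phf19 (-1.20 ± 0.22), the lipid kinase Pik3c2b (-1.10 ± 0.15) and the GTPase Gimap7 (-1.05 ± 0.15) fell as well. Of the risen leaders outside the lists, Tmem252 went from 95.4, 201 and 334 to 1565, 1707 and 1471 (2.97 ± 0.29, adjusted p = 5.72e-05), and Depp1, a FoxO target, from 314, 881 and 721 to 3403, 3286 and 2612 (2.36 ± 0.32, adjusted p = 0.000874). In all, 216 risen and 254 fallen genes were in no list.

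Genes of lung structure and of basic cell work showed few calls. Among epithelial markers 0 of 8 type 1, 0 of 10 type 2, 0 of 5 club and 0 of 6 ciliated cell genes passed, with medians of -0.11, 0.02, 0.29 and 0.00. Sftpc changed by -0.01 ± 0.14, Sftpb by 0.03 ± 0.11, Aqp5 by -0.32 ± 0.10 (adjusted p = 0.0809) and Ager by -0.21 ± 0.08. Of 13 junction genes only Gja1, connexin 43, passed and rose (0.69 ± 0.14, adjusted p = 0.0132), and of 9 genes of sodium, chloride and water transport 0 passed, with Scnn1a at 0.04 ± 0.18. With 1 array omitted the adjusted p rose above 0.05 for Gja1 (up to 0.0637 without BN HTV 2, or BN control 2). None of 14 oxidative phosphorylation, 10 ribosomal protein, 15 proteasome, 12 ribosome biogenesis, 8 MHC class II, 8 cholesterol and 17 interferon genes passed; their medians ran from -0.03 for ribosomal proteins to 0.21 for ribosome biogenesis, and that of the interferon genes was 0.01. Of the 12 ribosome biogenesis genes 6 had HTV arrays wholly above the controls and 0 wholly below, against 10.4% and 16.2% of all genes. For the 13 junction genes these counts were 5 and 1. Among 17 matrix genes Col1a1 fell (-0.62 ± 0.15, adjusted p = 0.0257; 831, 484 and 642 in control and 385, 434 and 413 in HTV arrays), and among 13 cell cycle genes Pcna rose (0.44 ± 0.12, adjusted p = 0.0405). Leaving out 1 array ended the call of Col1a1 (up to 0.101 without BN HTV 1, 2 or 3, or BN control 1 or 3) and Pcna (up to 0.149 without BN HTV 1, 2 or 3, BN control 1, 2 or 3, SS HTV 1, 2 or 3, or SS control 2). Of 8 fibroblast markers Tcf21 and Col1a1 fell, and of 11 cytochrome P450 and other xenobiotic enzymes Cyp1b1 rose (0.76 ± 0.16, adjusted p = 0.0162). None of 10 smooth muscle, 5 mesothelial, 11 cardiac muscle and 2 adipose and liver markers passed. The call was lost without a single array for Cyp1b1 (up to 0.0786 without BN HTV 1, or BN control 2 or 3). Over all 62 lists, 97 of 616 distinct tested genes rose and 26 fell.

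The BN change was set against that of the SS strain by the test of the difference itself. No gene's change differed between the strains by limma's test of BN change minus SS change (0 of 10554 genes, 0.0%; smallest adjusted p = 0.528), although 901 genes had an unadjusted p below 0.05. Of the 593 genes that passed in BN, 570 had the same sign in SS and 328 also passed there in that direction, where 3.88% of all genes rose and 4.11% fell. The share of all genes with the same sign in both strains was not counted. Both calls came from 1 fit with a shared estimate of spread, so a gene with little spread passes more easily in both. Among the leading genes, Cxcl2 changed by 3.65 ± 0.58 in BN and 3.13 ± 0.58 in SS, Il1a by 3.46 ± 0.17 and 3.14 ± 0.17, Sox18 by -2.52 ± 0.29 and -1.71 ± 0.29, and Id3 by -2.21 ± 0.16 and -1.62 ± 0.16. The BN genes with the smallest p of the difference were Sbds, a ribosome maturation factor (1.01 ± 0.15 in BN, -0.24 ± 0.15 in SS), Gaa, lysosomal alpha-glucosidase (-0.65 ± 0.15 and 0.45 ± 0.15), Col1a1 (-0.62 ± 0.15 and 0.36 ± 0.15), Col15a1 (-0.51 ± 0.11 and 0.18 ± 0.11), Socs5 (0.67 ± 0.11 and -0.01 ± 0.11) and Zfyve19 (-0.89 ± 0.20 and 0.32 ± 0.20). Each of these 6 had an adjusted p of 0.528 for the difference, which does not pass and does not show that the strains act alike. Other tested probe sets of Sbds (0.03 ± 0.17) and Socs5 (0.08 ± 0.14) did not pass in BN. The difference was 1.26 ± 0.22 for Sbds, -1.10 ± 0.22 for Gaa and -1.21 ± 0.28 for Zfyve19. Omitting 1 array raised the adjusted p above 0.05 for Gaa (up to 0.0998 without BN HTV 1, 2 or 3, or BN control 1 or 3), Col15a1 (up to 0.0653 without BN HTV 1, or BN control 2) and Zfyve19 (up to 0.0849 without BN HTV 1 or 2, or BN control 2 or 3).

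**Figure D4:**
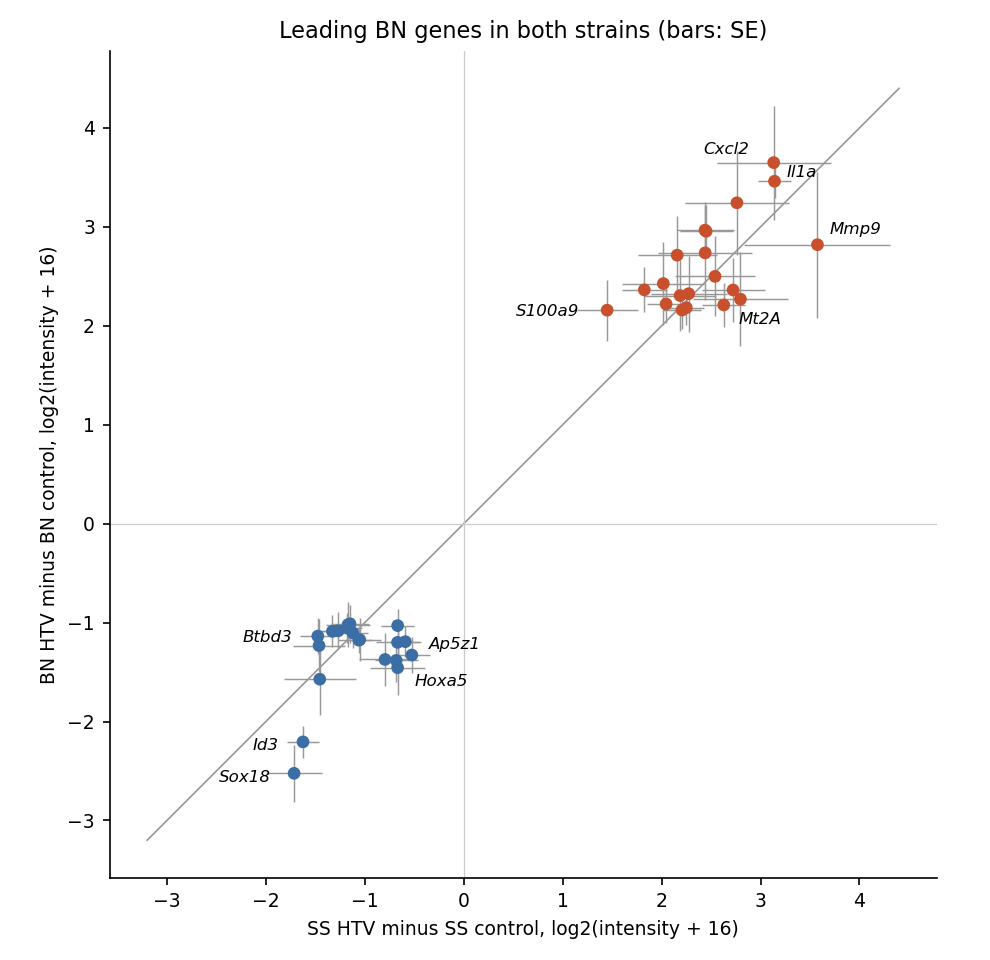
Change with HTV in SS lungs (horizontal axis) and in BN lungs (vertical axis), both as HTV minus control in log2(intensity + 16), for the 20 leading risen genes (red) and 20 leading fallen genes (blue) of BN; bars are SE and the grey line marks equal change. The genes were picked for their BN change, which places them away from 0 on the vertical axis; all 40 have the same sign in SS.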

How the data were processed

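Each array is 1 lung RNA of a BN or SS rat on a rat expression array with 1 colour. The authors deposited 1 linear intensity per probe set, made with MAS5 per the submitters' processing notes, whose version and settings are not in those notes; the files show a trimmed mean of 150 on each array, taken from percentile 2 to 98. Here log2(intensity + 16) was fitted with limma 3.58.1 in R 4.3.3 as 4 group means over all 12 arrays, with an intensity trend and 8 residual degrees of freedom. Probe sets with a mean below the 40th percentile were left out, as were 57 control probe sets. P-values were Benjamini-Hochberg adjusted over the 18625 kept probe sets, with a threshold of 0.05. The fit was tested on simulated data. By the platform annotation 20826 probe sets name 1 gene, 436 name several and 9780 name none. Each gene was taken from its probe set with the highest mean.

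Arrays were grouped by their titles. Nothing in the labels used here says how the animals of a group were chosen, so p-values reflect only how these samples vary, which may be technical, and the precision is limited by how few arrays there are. No batch is given. Genes were named from a pool set by a rule: the 20 largest rises and 20 largest falls past the test without overlap, the first 3 members of every list and up to 6 with its smallest p, and 6 genes past the BN test with the smallest p of the strain difference. The text prints a selection of this pool. Left out are, among others, Hbegf, Zfp36l1, Zfp36l2 and Ankrd1, which did not pass, and S100pbp and Dnaaf10, which fell. Members that complete a count, such as Lcn2, Mafk, Myc and Nr4a2, and genes said to be chosen after their values were seen are further names. The members and lists were chosen with earlier results of these data known. Alternatives were pseudocounts of 1 and 64, other filters, quantile normalization, median centring, no trend, array weights, BN arrays only, the mean of a gene's probe sets, and each array left out.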

Additional observations from a re-analysis of the deposited data

Results flagged for a closer look

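Among the named genes, every BN HTV array moved one way from the BN control mean and every SS HTV array the other way from the SS control mean for 9. The change in BN minus that in SS was 1.26 for Sbds, -1.10 for Gaa, -0.98 for Col1a1, -0.69 for Col15a1 and -1.21 for Zfyve19, each with an adjusted p of 0.528 by limma's test of the difference. These 5 were picked by the p of that difference, so their opposite directions are a description. It was -0.39 for Mmp2, -0.46 for Nkx2-1, -0.54 for Spry1 and -0.30 for Vwf, with adjusted p of 0.586, 0.572, 0.586 and 0.648. No difference passed.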

How the results depend on the processing

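In BN lungs 1084 probe sets passed, 552 higher and 532 lower. Array weights gave 1658, 805 higher and 853 lower. Leaving out 1 array gave from 540 without BN HTV 1 to 1462 without SS control 3 in all, from 292 to 701 higher and from 230 without BN HTV 2 to 761 lower; without BN HTV 3 it was 1042, 819 of them shared with the 1084. The other alternatives counted over probe sets gave 839 to 1139. With each array centred on its median, 60.8% of the calls were higher in place of 50.9%. The strain difference had 0 probe sets past the test, 901 genes having an unadjusted p below 0.05, and 0 to 1 with 1 array left out, the 1 without SS control 2; this count was added after seeing the data. Of 145 named genes that passed, 88 passed with any 1 array left out, 85 passed under all alternatives run, and 0 changed sign while past the test. With the 6 BN arrays alone, Bnip3, Col1a1, Csf3r, Dll4, Egr2, Fkbp5 and Gclc no longer passed. Nor did Mmp9, Myd88, Nr4a2, Tcf21, Timp1, Tlr2 and Txnrd1, with adjusted p up to 0.0965 for Myd88. Their calls thus rest on spread estimated with the SS arrays. Id1, Il33, Lck, Nos2 and Prf1 passed with the BN arrays alone. Of 62 list medians, 23 moved by more than the spread under at least 1 alternative. No paired analysis was possible because the labels give the groups no shared replicate numbers. The background and depth of each probe set are unknown, so low intensities have no order.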
